A study of Homo sapiens with 2 samples.

Results

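Levels of the tetraspanin genes were read from RNA sequencing of PC3 cells, an established line from a human prostate cancer. The cells had received either a control siRNA (a small interfering RNA, which lowers the messenger RNA it matches) or the POH1 siRNA. POH1, encoded by PSMD14, is a deubiquitinase of the proteasome. Each group held 1 library, so no value below has a replicate error and no test between the groups was made. The family was taken as the protein-coding genes named TSPAN and a number, with CD9, CD37, CD53, CD63, CD81, CD82, CD151, UPK1A, UPK1B, PRPH2 and ROM1, which gave 33 genes of the 58174 listed. A gene with at least 1 TPM in either library was counted as expressed, and 24 of the 33 were. TPM, the deposited unit of transcript abundance, is divided by transcript length, so levels of different genes can be compared within a library, but it keeps no read depth, and the depth is unknown. The family was chosen by its measured differences between these same libraries, because TSPAN genes were at lower values after POH1 siRNA, so the differences below are a description and support nothing.

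Tetraspanins are small membrane proteins that cross the membrane several times and carry a large extracellular loop with conserved disulphide bonds. They bind integrins, immunoglobulin-domain proteins, proteases and each other in membrane assemblies, and they sort these partners during transport to the cell surface, to late endosomes and to extracellular vesicles. In prostate cancer the family is best known through CD82 (KAI1), which was described as a suppressor of metastasis, and through CD151, which binds laminin-binding integrins.

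Values are given throughout with the control library first and the POH1 siRNA library second. PSMD14 was at 50.9 and 35.1 TPM, so 69.0% of its level remained. Its log2 difference of -0.52 was itself within the 1.5-fold limit used for the calls below. Markers of the line and of epithelium were present: KRT8 was at 517 and 556 TPM, KRT18 at 455 and 454 TPM, VIM at 482 and 421 TPM and CD44 at 486 and 531 TPM. Of 6 luminal prostate markers, KLK2 and KLK3, which PC3 cells are known to lack, were listed at 0 in both libraries. Of 6 leukocyte markers, CD3E, MS4A1 and LYZ were listed at 0 in both libraries, PTPRC was at 0 and 0.0568 TPM and CD14 at 1.59 and 2.11 TPM. The summed level of 6 fibroblast markers was 31.5 and 48.0 TPM, nearly all of it COL1A1 (30.9 and 47.8 TPM). That of 4 endothelial markers was 6.60 and 5.11 TPM, most of it PECAM1 (4.90 and 3.88 TPM), with CDH5 at 1.05 and 0.653 TPM and VWF at 0.0224 and 0.128 TPM.

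The summed level of the family was nearly the same in both libraries, 3660 and 3649 TPM, a ratio of 0.997. Within that sum 6 of the 24 expressed genes (25.0%) were lower by 1.5-fold or more and 0 were at least 1.5-fold higher, on the log2(TPM + 1) scale used for all calls. Over the 12427 expressed protein-coding genes, 8.53% were called lower and 9.51% higher by the same rule. The lower genes were TSPAN3, TSPAN31, TSPAN2, TSPAN12, TSPAN33 and TSPAN6. On the deposited scale, differences below 0 were found for 12 expressed tetraspanins and above 0 for the other 12. The shares over expressed protein-coding genes were 37.9% and 62.1%. The tetraspanins were thus not lower throughout the family. Their median log2 difference was -0.00060, against 0.13 for expressed protein-coding genes. All 6 lower genes carry a TSPAN name: they were 6 of the 16 expressed TSPAN-named genes (median log2 difference -0.36), and 0 of the 8 expressed genes with other names (median 0.15) were called. Since the genes were picked for this contrast, nothing further is read from these counts. With a threshold of 2-fold, 2 were lower, TSPAN3 and TSPAN31, and 0 were higher, beside 2.62% and 1.97% of expressed protein-coding genes.

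**Figure D1:**
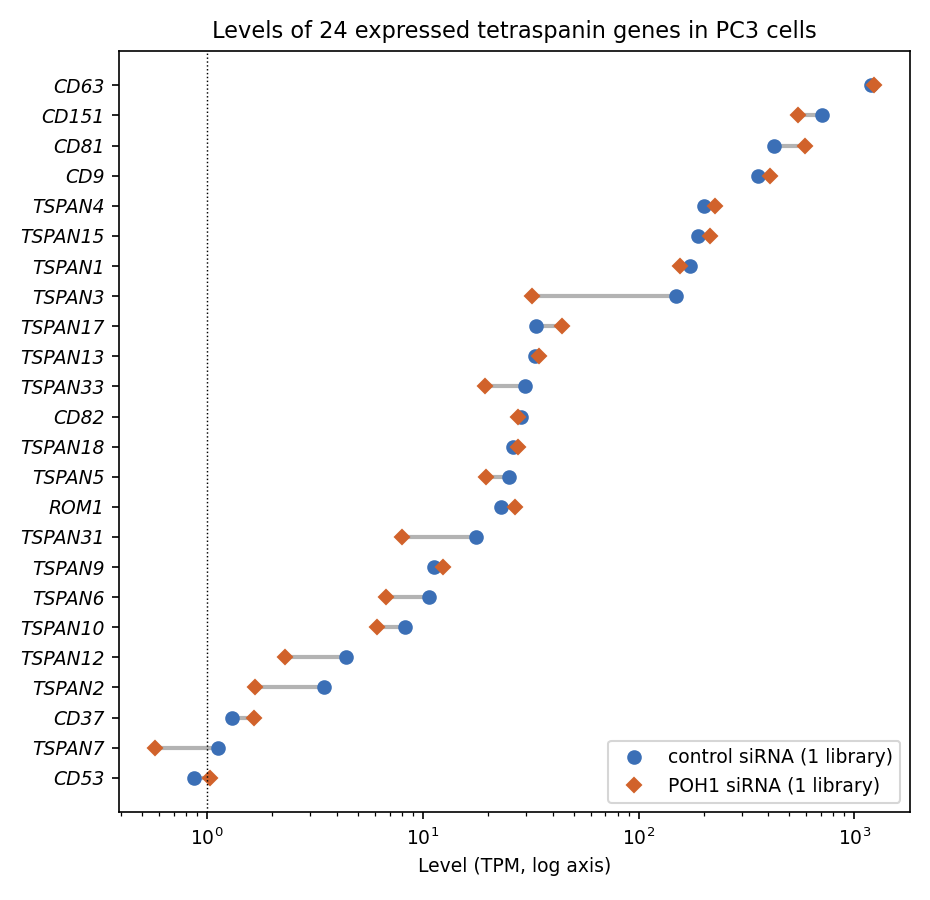
Level of each of the 24 expressed tetraspanin genes in TPM on a log axis, ordered by the control library; circles are the control siRNA library, diamonds the POH1 siRNA library, and the dotted line marks 1 TPM. CD63 has the highest level in both libraries, and the widest gap between the symbols on this axis is that of TSPAN3 (149 and 32.1 TPM).

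The most abundant members were the broadly expressed ones with CD names. CD63, a resident of late endosomes and a marker of exosomes, was at 1201 and 1232 TPM, and its level ranked 98 and 97 among expressed protein-coding genes. CD151, the partner of laminin-binding integrins, was at 709 and 549 TPM. CD81, an entry factor of hepatitis C virus, was at 424 and 592 TPM. CD9, known for its part in the fusion of sperm and egg and as a marker of extracellular vesicles, was at 358 and 408 TPM. These 4 genes made up 73.5% of the family's summed level in the control library and 76.2% in the POH1 siRNA library. CD151 and CD81 changed places in the order of levels: the ratio of CD81 to CD151 was 0.597 in the control library and 1.08 in the POH1 siRNA library. The log2 differences were -0.37 for CD151 and 0.48 for CD81, both within 1.5-fold. CD151 overlaps POLR2L, an RNA polymerase II subunit gene at 530 and 506 TPM, on the opposite strand, and the sources used here do not say whether reads were assigned by strand.

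The other genes with CD names were much lower. CD82 was at 28.5 and 27.7 TPM, with a log2 difference of -0.04. CD37, a leukocyte tetraspanin, was at 1.31 and 1.64 TPM, and it overlaps TEAD2 (73.7 and 70.4 TPM) on the opposite strand. CD53, which is likewise restricted to leukocytes, was at 0.869 and 1.03 TPM and counted as expressed only through the POH1 siRNA library. Of the 7 genes with CD names 0 were called in either direction, beside 8.53% lower and 9.51% higher over expressed protein-coding genes, and their summed level was 2722 and 2810 TPM.

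TSPAN3 had the largest difference in the family. It was at 149 and 32.1 TPM, a 4.64-fold lower value and a log2 difference of -2.18. TSPAN3 is a broadly expressed tetraspanin, and in the control library it stood eighth in the family, just below TSPAN1, an epithelial tetraspanin at 173 and 156 TPM. Its rank in level among expressed protein-coding genes went from 967 to 4124. Its difference was number 20 from the lowest of 12427 genes. When it was set beside 2319 protein-coding genes of similar level (mean TPM within 2-fold), 0.0862% of them reached a difference this low. For the 367 that were also similar in GC content (48.0% for TSPAN3, within 2.5 percentage points), the share was 0.272%. TSPAN3 shares exon sequence with 1 other annotated gene, a long noncoding RNA on the opposite strand that was listed at 0 in both libraries. Without TSPAN3, the summed level of the family was 3511 and 3617 TPM.

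TSPAN31 was at 17.6 and 7.98 TPM, 2.21-fold lower (log2 difference -1.05). The gene was first found as a sequence amplified in sarcomas, together with its neighbour CDK4, which encodes the cyclin D-dependent kinase. In the annotation the 2 genes lie on opposite strands and their exons overlap over 1369 bases. CDK4 was at 255 and 102 TPM, with a log2 difference of -1.31, so both genes of the pair were lower by more than 2-fold and the abundant one was CDK4. Reads of these genes cannot be told apart where strand was not used, and the part of CDK4 reads in the value of TSPAN31 was not tested. Of 3894 protein-coding genes of similar level, 2.11% reached a difference this low.

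The 4 other lower genes were nearer to the threshold, and 2 of them were expressed at a few TPM. TSPAN33, a tetraspanin of red cell precursors and B cells, was at 29.7 and 19.3 TPM, 1.54-fold lower (log2 difference -0.60). TSPAN6, which has been tied to vesicle traffic in neurons, was at 10.7 and 6.77 TPM, 1.58-fold lower (log2 difference -0.59). These genes lay just past the threshold of 0.585 on the log2 scale. The nearest gene short of it was TSPAN7, at 1.12 and 0.573 TPM (log2 difference -0.43). TSPAN12, which amplifies Norrin signalling through the receptor FZD4 in the retina, was at 4.41 and 2.29 TPM, and TSPAN2, known from oligodendrocytes, at 3.50 and 1.67 TPM. For genes at so few TPM the pseudocount makes the log2 difference smaller than the ratio: TSPAN12 was 1.93-fold lower with a log2 difference of -0.72, and TSPAN2 2.09-fold lower with -0.75. The ratio of TSPAN7 was 1.96-fold lower, and it counted as expressed only through the control library. Of protein-coding genes of similar level, 8.23% reached a difference as low as that of TSPAN33. For TSPAN6, TSPAN12 and TSPAN2 the shares were 9.50%, 5.92% and 5.12%.

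**Figure D2:**
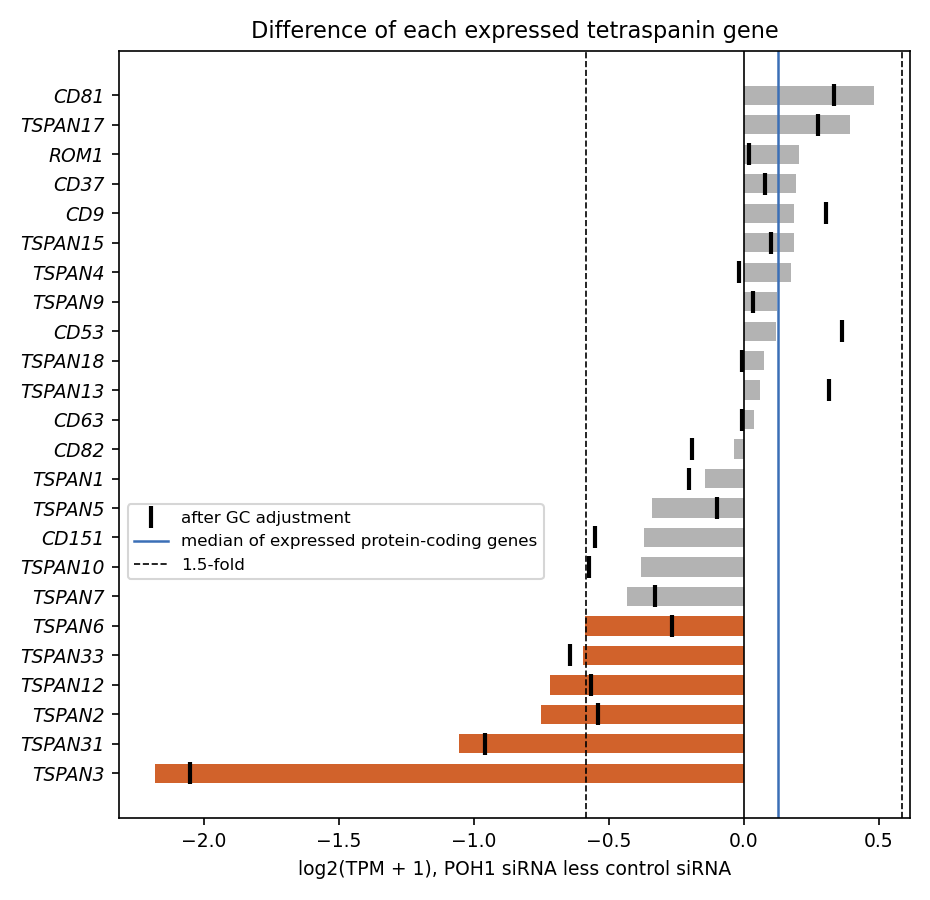
Log2(TPM + 1) in the POH1 siRNA library less that in the control library for the 24 expressed tetraspanin genes; bars are the differences, orange where at least 1.5-fold lower (dashed lines), short black marks are the differences after adjustment for GC content, and the blue line is the median of expressed protein-coding genes. The 6 orange bars run from TSPAN6 (-0.59) to TSPAN3 (-2.18), no bar reaches the dashed line on the right, and after adjustment 3 marks stay beyond the line on the left.

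Transcripts richer in GC had higher differences in this pair of libraries, so GC content is given beside the family. Across the 12427 expressed protein-coding genes the Spearman correlation of the difference with GC content was 0.43, and across the 24 tetraspanins it was 0.46; these are descriptions across genes measured in the same libraries. The lower tetraspanins had a median GC content of 47.4% (43.8% to 53.5%) and the other 18 one of 57.6%. Of the 10 expressed tetraspanins with up to 50% GC, 5 were lower, beside 15.3% of expressed protein-coding genes of that GC content. Of the 14 above 50% GC, 1 was lower, TSPAN33, beside 2.57%. After the running median over genes ordered by GC content was subtracted, 3 tetraspanins were lower, TSPAN3 (-2.05), TSPAN31 (-0.96) and TSPAN33 (-0.64), beside 4.59% of expressed protein-coding genes. TSPAN12 (-0.57), TSPAN2 (-0.54) and TSPAN6 (-0.27) were then within 1.5-fold. GC-rich members came close to the line instead, TSPAN10 at -0.57 and CD151 at -0.55. Of 320 protein-coding genes of similar level to CD151, 9.38% reached a difference this low. Of the 50 that were also similar in GC content 0 did, and their median was 0.27.

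**Figure D3:**
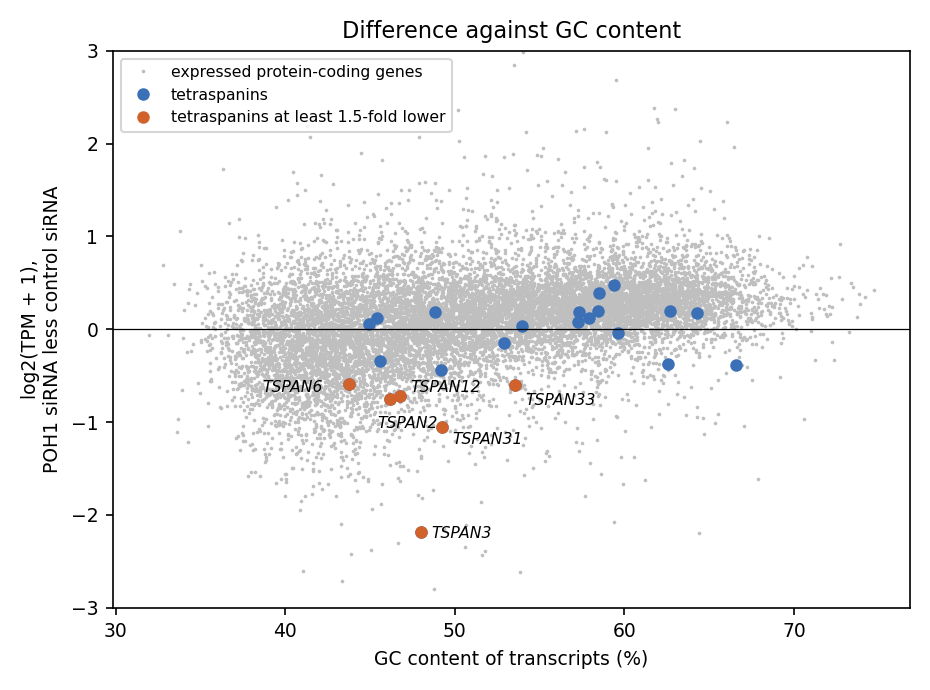
Log2(TPM + 1) difference, POH1 siRNA less control siRNA, against the GC content of the transcripts in per cent; grey points are expressed protein-coding genes (16 lie outside the plotted range), blue and orange points are the 24 expressed tetraspanins. The grey cloud slopes upward, 5 of the 6 orange points lie below 50% GC, and TSPAN3 and TSPAN31 lie lowest among the tetraspanins.

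The TspanC8 tetraspanins escort the protease ADAM10 out of the endoplasmic reticulum and to the surface, and different members steer it to different substrates. Of the 6 genes in this group, 5 were expressed. TSPAN15, which directs ADAM10 to N-cadherin, was the main one by level, at 188 and 213 TPM. TSPAN17 was at 33.4 and 44.2 TPM, with the second highest log2 difference in the family (0.39). TSPAN33 was lower, as given above, TSPAN5 was at 25.1 and 19.6 TPM (log2 difference -0.34) and TSPAN10 at 8.26 and 6.11 TPM (-0.38). TSPAN10 overlaps NPLOC4 (97.6 and 144 TPM) on the opposite strand over 36 bases. TSPAN14, the remaining member, was listed at 0 in both libraries; such a 0 can be a failed estimate, which cannot be told from the table, so the gene is not called silent and the group's sum may lack it. The summed level of the group was 284 and 302 TPM. On the deposited TPM scale, the 3 members with differences below 0 were thus outweighed by TSPAN15 and TSPAN17. ADAM10 itself was at 3.24 and 3.91 TPM. Of 15 expressed genes in a list of ADAM10, related proteases and substrates, 2 were at least 1.5-fold higher, the receptor genes NOTCH1 (5.38 and 8.97 TPM) and LRP1 (25.9 and 45.2 TPM), and 0 were lower (median log2 difference 0.21). The share called higher, 13.3%, is near the 9.51% of expressed protein-coding genes, of which 8.53% were called lower. After adjustment for GC content, LRP1 (0.63) and APP (0.60) were higher and NOTCH1 (0.46) was within 1.5-fold. The adjusted share called higher over expressed protein-coding genes was 12.4%. CDH2, which encodes N-cadherin, was at 19.4 and 18.2 TPM.

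Several further TSPAN genes were expressed and within 1.5-fold. TSPAN4, a component of migrasomes, was at 201 and 226 TPM. TSPAN13 was at 32.9 and 34.4 TPM, TSPAN18, which binds the calcium channel protein ORAI1, at 26.2 and 27.7 TPM, and TSPAN9, known from platelets, at 11.3 and 12.4 TPM. ROM1, the photoreceptor tetraspanin that pairs with peripherin, was at 23.0 and 26.6 TPM, although PRPH2, the gene of peripherin, was listed at 0 in both libraries. ROM1 overlaps EML3 on the opposite strand over 618 bases, and EML3 was at 52.4 and 81.2 TPM. TSPAN18 likewise overlaps TP53I11 (48.9 and 51.2 TPM) over 74 bases. Reads of such pairs cannot be told apart where strand was not used.

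The 9 members under the limit of 1 TPM in both libraries were TSPAN8, TSPAN11, TSPAN14, TSPAN16, TSPAN19, TSPAN32, UPK1A, UPK1B and PRPH2. TSPAN8, a tetraspanin of gut and pancreatic tumours, lay just below the limit at 0.671 and 0.453 TPM. TSPAN11 was at 0.138 and 0.380 TPM and the bladder gene UPK1A at 0.130 and 0.0511 TPM. UPK1B was listed at 0 and at 0.177 TPM, TSPAN32 at 0.0570 TPM and at 0. The 4 genes PRPH2, TSPAN14, TSPAN16 and TSPAN19 were listed at 0 in both libraries, with the doubt given above for TSPAN14. Of the uroplakins that pair with UPK1A and UPK1B, UPK2 was at 3.95 and 5.64 TPM, UPK3A at 2.35 and 1.34 TPM and UPK3B at 0.207 and 0.702 TPM.

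Promoter sequence was looked at for the lower genes. The RefSeq promoter table (GRCh38.p14) held 25 of the 33 members, 17 of them expressed and 5 of them lower; TSPAN3 was not among them. The last 150 bases before the annotated start are shown for the 5 lower genes in the table, to let their composition be compared. For TSPAN6, which has 2 starts there, both are shown. Capitals mark the GC box GGGCGG and the CCAAT box CCAAT, each on either strand.
TSPAN31 promoter, chr12:57744889-57745038, plus strand: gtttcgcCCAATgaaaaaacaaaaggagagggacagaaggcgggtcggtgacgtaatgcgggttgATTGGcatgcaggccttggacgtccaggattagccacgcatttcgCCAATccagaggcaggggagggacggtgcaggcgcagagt
TSPAN33 promoter, chr7:129144557-129144706, plus strand: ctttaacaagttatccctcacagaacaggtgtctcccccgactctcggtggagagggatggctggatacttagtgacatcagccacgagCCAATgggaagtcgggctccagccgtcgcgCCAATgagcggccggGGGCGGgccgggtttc
TSPAN2 promoter, chr1:115089504-115089653, minus strand: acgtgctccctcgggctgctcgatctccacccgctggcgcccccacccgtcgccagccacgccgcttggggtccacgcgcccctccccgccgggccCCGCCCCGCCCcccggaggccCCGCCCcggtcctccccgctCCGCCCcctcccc
TSPAN12 promoter, chr7:120858145-120858294, minus strand: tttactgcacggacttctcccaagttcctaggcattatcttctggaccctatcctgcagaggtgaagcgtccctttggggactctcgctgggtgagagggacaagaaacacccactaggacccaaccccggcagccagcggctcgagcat
TSPAN6 promoter, first start, chrX:100637105-100637254, minus strand: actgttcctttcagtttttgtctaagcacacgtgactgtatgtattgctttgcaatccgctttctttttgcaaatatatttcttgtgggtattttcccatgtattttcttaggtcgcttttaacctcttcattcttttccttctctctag
TSPAN6 promoter, second start, chrX:100636807-100636956, minus strand: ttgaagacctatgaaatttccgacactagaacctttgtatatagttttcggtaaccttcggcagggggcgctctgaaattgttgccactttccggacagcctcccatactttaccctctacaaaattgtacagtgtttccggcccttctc
TSPAN31 held 3 CCAAT boxes and no GC box, TSPAN33 held 2 CCAAT boxes and 1 GC box, and TSPAN2 held 3 GC boxes and no CCAAT box, counting overlapping matches once. TSPAN12 and both starts of TSPAN6 held neither. A GC box was thus found for 2 of the 5 lower genes and a CCAAT box for 2 of 5. The windows of TSPAN6 had 36.0% and 46.0% GC, and that of TSPAN2 had 83.3%. Among 15843 protein-coding genes with a start in the table, 56.0% held a GC box and 31.5% a CCAAT box in a window of this length before any start, and among the 17 expressed tetraspanins 12 and 7 did. No match to the TATA box TATAAA, the ETS motif CCGGAAG or the AP-1 motif TGANTCA was found before the 5 lower genes, on either strand; over all genes these were found for 8.14%, 11.4% and 4.44%. These 5 genes thus showed no motif in common among those searched. The matches are letters in a window and not shown to be sites.

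Known partners of the tetraspanins are described next; 82.0% of all expressed protein-coding genes were within 1.5-fold, 8.53% lower and 9.51% higher, and the counts of partners stand beside those shares. Of the laminin receptor subunits that bind CD151, ITGA3 was at 364 and 487 TPM, ITGA6 at 7.88 and 7.17 TPM, ITGB1 at 314 and 278 TPM and ITGB4 at 147 and 203 TPM. In the list of 9 integrin genes, 8 were expressed, 1 was lower (12.5%), ITGB5 at 48.3 and 31.3 TPM, and 0 were higher. In the POH1 siRNA library CD151, ITGA6 and ITGB1 were at lower values and ITGA3 and ITGB4 at higher ones, each within 1.5-fold. FZD4, the receptor that TSPAN12 binds, was at 6.27 and 4.06 TPM, while its co-receptors LRP5 and LRP6 were at 60.6 and 84.7 TPM and at 1.15 and 1.64 TPM.

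Of 16 expressed genes of immunoglobulin-domain and other membrane partners, 2 were at least 1.5-fold higher (12.5%) and 1 was lower (6.25%), both near the shares of expressed protein-coding genes. A difference above 0 was found for 15 of them, beside 62.1% of expressed protein-coding genes, with a median of 0.24. IFITM1, an interferon-induced protein known to associate with CD81, was at 66.8 and 240 TPM; it has near-identical family members, so its value is uncertain. IGSF8, the EWI-2 protein that binds CD9 and CD81, was at 57.3 and 88.0 TPM. PTGFRN, which also binds CD9 and CD81, was at 14.8 and 16.9 TPM, and HBEGF, a growth factor held by CD9, at 202 and 246 TPM. CD46, a complement regulator, was the lower gene, at 16.5 and 6.38 TPM. Thus CD81 and the EWI-2 gene IGSF8 were both at higher values in the POH1 siRNA library, with IGSF8 past 1.5-fold and CD81 not. After adjustment for GC content both were within 1.5-fold, IGSF8 at 0.43 and CD81 at 0.33.

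Genes of exosome formation, the route that carries CD63, CD81 and CD9 out of the cell, were split. Of 22 expressed genes, 5 were lower and 1 was higher, beside the 8.53% and 9.51% of all expressed protein-coding genes, with a median log2 difference of 0.17. SDCBP, which encodes syntenin-1, a protein that binds the tail of CD63, was at 15.1 and 7.93 TPM. RAB11A, a GTPase of recycling endosomes, was at 22.2 and 5.67 TPM, and RAB27A, which docks multivesicular bodies, at 5.68 and 3.33 TPM. LAMP2 was at 39.0 and 21.1 TPM and FLOT2 at 46.7 and 26.3 TPM, whereas RAB31 was at 1.22 and 2.47 TPM. PDCD6IP, the syntenin partner ALIX, was at 33.5 and 41.4 TPM and TSG101 at 74.9 and 86.8 TPM. After adjustment for GC content, RAB11A (-1.43) and FLOT2 (-0.91) were still lower, and RAB31 (0.76) and PDCD6IP (0.71) were higher, beside 4.59% lower and 12.4% higher of expressed protein-coding genes; the adjusted median of the list was 0.22.

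Tetraspanins are palmitoylated by enzymes with a DHHC motif. Of 15 expressed genes of such enzymes, 2 were lower, ZDHHC6 (23.0 and 11.8 TPM) and ZDHHC13 (14.0 and 7.51 TPM), and 0 were higher, beside the 8.53% and 9.51% of expressed protein-coding genes. After adjustment for GC content 0 were lower and 1 was higher, beside 4.59% and 12.4% of expressed protein-coding genes. The higher gene was ZDHHC20, at 3.84 and 5.77 TPM (adjusted difference 0.91). ZDHHC2, which palmitoylates CD9 and CD151, was at 1.48 and 1.04 TPM. Genes of unrelated families with a similar number of membrane passes, such as TM4SF1, PMP22 and the CMTM genes, were taken for comparison. Of 16 expressed, 1 was lower (6.25%), CMTM6 at 14.8 and 6.72 TPM, and 0 were higher, beside 8.53% and 9.51%. Differences below 0 were found for 12 of these 16 genes, beside 37.9% of expressed protein-coding genes, with a median of -0.15. With 1 library per group the difference between these families and the tetraspanins cannot be tested.

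**Figure D4:**
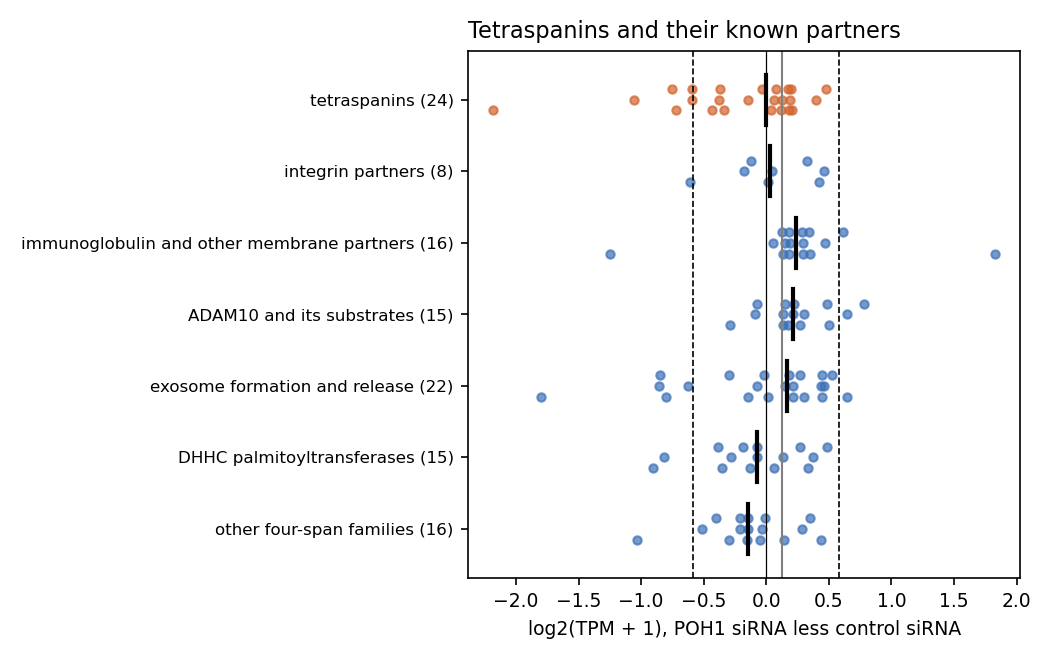
Log2(TPM + 1) difference, POH1 siRNA less control siRNA, for expressed genes of 7 sets, the number of genes in parentheses; each point is a gene, thick black bars are medians, dashed lines mark 1.5-fold, the grey line is the median of expressed protein-coding genes, and points are spread vertically for view. The tetraspanins reach lowest, at TSPAN3, while their median lies at 0 to the resolution of the plot, and the membrane partners lie mostly right of 0.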

How the data were processed

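RNA of PC3 cells was sequenced as 2 libraries, 1 per group, with groups taken from the labels. The deposited values are TPM per Ensembl gene; the columns summed to 999955 (control) and 999968 (POH1 siRNA). The authors used CASAVA, HISAT2 and build hg19, per the submitters' processing notes; for versions, annotation, quantifier, strand use and depth, the sources used here say nothing. TPM is relative, so abundant transcripts shift all others.

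Of 58174 identifiers, 57392 were given a symbol from a name table. Gene types, exon overlaps and GC content (median over transcripts) came from GENCODE release 29, which annotates GRCh38. The only coordinates printed are those of the promoter windows, on GRCh38.p14, a different build from the hg19 that the authors used. Differences are log2(TPM + 1), POH1 siRNA less control, called at 1.5-fold. The GC adjustment subtracts a running median over 501 genes (mean level of at least 5 TPM) and adds back their overall median. The GC adjustment was tested on simulated data with a planted linear GC slope. The scalings and exon overlaps were not tested in this way. Alternatives were other pseudocounts, filters, scalings and a 2-fold threshold. The members and lists were chosen with earlier results of these data known. Every expressed member is named; from each list, genes past 1.5-fold and known partners of tetraspanins, with a few further members for context that were chosen after their values were seen. Some genes of the marker lists are not reported here. Protein sequences were not used here. Python 3.11.15 and pandas 2.3.3 were used.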

Additional observations from a re-analysis of the deposited data

How the results depend on the processing

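The count of 6 lower tetraspanins became 2 with a pseudocount of 5 (TSPAN3 and TSPAN31), 3 with GC adjustment and 2 with a threshold of 2-fold. Over expressed protein-coding genes the share called lower went with it, from 8.53% to 4.53%, 4.59% and 2.62%. The count was 7 with a pseudocount of 0.1, which added TSPAN7 (11.1% of protein-coding genes). When a mean level of 5 TPM was required it was 4 (8.17%). It was 6 under the other filters (8.32% and, with no filter, 5.57%) and the 3 scalings (11.9%, 11.6% and 10.9%). The count of higher genes was 0 under each setting. The share of protein-coding genes called higher ranged from 1.97% (threshold of 2-fold) to 12.9% (pseudocount of 0.1). The median log2 difference was -0.14 when libraries were scaled to a median log2 ratio of 0 and -0.13 with a trimmed mean of log2 ratios, where the ratio of summed levels was 0.905 and 0.913. Median scaling lowered the median of expressed protein-coding genes from 0.13 to 0.0027 and the log2 difference of TSPAN15 from 0.18 to 0.045. Sums of smaller groups of members were not rescaled, so their direction is given only for the deposited scale. TSPAN3 (-2.32 to -2.05) and TSPAN31 (-1.18 to -0.80) were past 1.5-fold under each alternative. The small differences of CD63, TSPAN4, TSPAN9, TSPAN13 and TSPAN18 changed sign under at least 1 alternative. With median scaling CD63, TSPAN9, TSPAN13 and TSPAN18 were below 0, so the even split of signs holds only for the deposited scale. No paired analysis was possible because each group held 1 library. Depth is unknown, so no counting error is given, and genes at a few TPM, such as TSPAN2 and TSPAN12, are the least certain.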
